A study of Homo sapiens with 8 samples.

Results

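Regulators of G protein signaling (RGS) were followed in G401 rhabdoid tumor cells after re-expression of SMARCB1. The set held 10 genes of this family, RGS1, RGS2, RGS3, RGS4, RGS5, RGS10, RGS16, RGS17, RGS19 and RGS20, out of 69215 genes counted in each library. RGS1 had been chosen by its log2 fold change between SMARCB1 Dox and SMARCB1 DMSO, in which its RNA was strongly lower, and the other 9 were taken as its relatives, among them its chromosome 1 neighbor RGS2. For this reason the values of the 10 genes for SMARCB1 induction are given as a description, without a test. Of the 10 genes, 9 had at least 1 read and 8 passed the expression filter, so that they were tested in the other comparisons.

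RGS proteins shorten signals that run through heterotrimeric G proteins. A receptor loads the Gα subunit with GTP, Gα and Gβγ then act on effectors such as adenylyl cyclases and phospholipase C, and the RGS domain ends the signal by speeding up GTP hydrolysis on Gα. RGS1, RGS2, RGS3, RGS4, RGS5 and RGS16 belong to the R4 subfamily of mostly small proteins, RGS17, RGS19 and RGS20 to the RZ subfamily, and RGS10 to the R12 subfamily. RGS1 is best known from lymphocytes, RGS2 for its preference for Gαq, and RGS5 as a marker of pericytes.

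G401 is an established cell line of a kidney rhabdoid tumor, and it has lost SMARCB1, a core subunit of the SWI/SNF chromatin remodeling complexes. All cells of the study carried a Tet-On cassette for either SMARCB1 or GFP, and each line was given 0.1 µg/ml doxycycline (Dox) or an equal amount of the solvent dimethylsulfoxide (DMSO) for 12 h. The 8 RNA-seq libraries formed 4 groups of 2, named here SMARCB1 DMSO, SMARCB1 Dox, GFP DMSO and GFP Dox. According to the study's methods, several plates per condition were pooled and experiments were done in duplicate, and whether an inducible line was clonal is not stated, so p-values measure the spread between these libraries, which may be technical.

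Library totals ran from 29632090 to 37597477 counts on genes, and mitochondrially encoded genes took 18.9% to 27.9% of them, the most in SMARCB1 DMSO replicate 1. In the SMARCB1 line, SMARCB1 itself had 10 and 21 counts with DMSO against 30474 and 29383 with Dox, and all 4 libraries of the GFP line had 0. Because several RGS genes are known from blood and vessel cells, markers of both were read. The 10 blood cell markers summed to between 0.592 and 1.66 CPM in a library (CPM here means counts after TMM scaling of the library sizes), with CD3E and MS4A1 at 0 in all 8, and the 4 endothelial markers summed to between 0.328 and 0.830 CPM. By group, the blood markers summed to 0.758 to 0.926 CPM in SMARCB1 DMSO, 0.759 to 0.801 in SMARCB1 Dox, 0.592 to 1.12 in GFP DMSO and 1.34 to 1.66 in GFP Dox. The endothelial sum was higher in SMARCB1 Dox (0.646 to 0.830 CPM) than in the other 3 groups, where no library passed 0.520 CPM. Each sum lay below the level of RGS1, RGS2, RGS3, RGS5, RGS10, RGS19 and RGS20 in any library, and the part of the marker sums in the RGS values was not tested.

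RGS1 and RGS2 lie near each other on the plus strand of chromosome 1, with RGS13 between them. In GENCODE v44 on GRCh38, RGS1 spans chr1:192575763-192580024 and RGS2 chr1:192809039-192812275, with 229 kb between them. The 250 bases upstream of each RefSeq start (GRCh38.p14, plus strand, chr1:192575523-192575772 for RGS1 and chr1:192808789-192809038 for RGS2) are shown because these neighbors moved in the same direction with SMARCB1. Capitals mark matches, on either strand, to the TATA box letters TATAAA, the CCAAT box letters CCAAT, the GC box letters GGGCGG and the core letters TGACG of the cAMP response element.
RGS1: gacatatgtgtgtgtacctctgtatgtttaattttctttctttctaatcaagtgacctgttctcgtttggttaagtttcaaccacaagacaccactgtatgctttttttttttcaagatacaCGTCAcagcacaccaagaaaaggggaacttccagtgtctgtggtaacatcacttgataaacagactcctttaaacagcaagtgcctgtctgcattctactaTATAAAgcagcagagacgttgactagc
RGS2: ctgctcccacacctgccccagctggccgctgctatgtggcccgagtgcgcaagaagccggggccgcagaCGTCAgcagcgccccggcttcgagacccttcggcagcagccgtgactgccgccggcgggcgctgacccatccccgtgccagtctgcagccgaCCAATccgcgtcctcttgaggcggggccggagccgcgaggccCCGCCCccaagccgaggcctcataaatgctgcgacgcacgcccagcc
The RGS1 window was AT-rich, with 39.2% GC and 3 CpG, and held the letters of the TATA box and of the response element core. The RGS2 window had 72.8% GC and 28 CpG, and held the CCAAT box, the GC box and the core. Over 35116 RefSeq promoter windows of the same length, the median was 58% GC and 11 CpG, and 10.7% held the TATA box letters, 32% the CCAAT box, 42.6% the GC box and 21.2% the core. Neither window held the AP-1 letters TGACTCA (4.2% of all windows) or the full cAMP response element TGACGTCA, which contains the core (1.65%). A match describes letters only and names no bound factor.

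RGS1 RNA was lower in both SMARCB1 Dox libraries than in the other 6 libraries. It stood at 36.2 and 27.1 CPM in SMARCB1 DMSO against 8.12 and 9.79 CPM in SMARCB1 Dox. In the GFP line it stood at 32.2 and 29.9 CPM with DMSO and at 33.8 and 28.9 CPM with Dox. The 3 groups without induction of SMARCB1 overlapped with each other. The lowest of their 6 libraries held 894 reads of RGS1, against at most 342 with SMARCB1 induced. The level with SMARCB1 was 3.53-fold lower than in SMARCB1 DMSO (log2 fold change -1.82, SE 0.135), from 31.7 ± 6.44 to 8.95 ± 1.18 CPM (SD, n = 2). SMARCB1 DMSO replicate 1, the library with the largest mitochondrial share, also had the highest RGS1 level, and without it the log2 fold change was -1.60. In these bulk libraries, fewer cells with RGS1 RNA and less RGS1 RNA per cell cannot be told apart.

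RGS2, which limits Gαq and adenylyl cyclase signaling, also had its lowest levels in SMARCB1 Dox, but the lines differed as well. It had 504 and 534 reads in SMARCB1 DMSO (17.3 and 16.2 CPM) against 302 and 333 in SMARCB1 Dox (8.48 and 9.53 CPM). In the GFP line it had 1282 and 1268 reads with DMSO and 1180 and 1086 with Dox, which came to 29.7 to 38.3 CPM. The groups therefore formed 3 separate levels, with both GFP groups overlapping at the top, SMARCB1 DMSO in between, and SMARCB1 Dox at the bottom. The log2 fold change with SMARCB1 was -0.89 (SE 0.131), a 1.86-fold lower level, from 16.7 ± 0.774 to 9.01 ± 0.738 CPM (SD, n = 2).

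**Figure D1:**
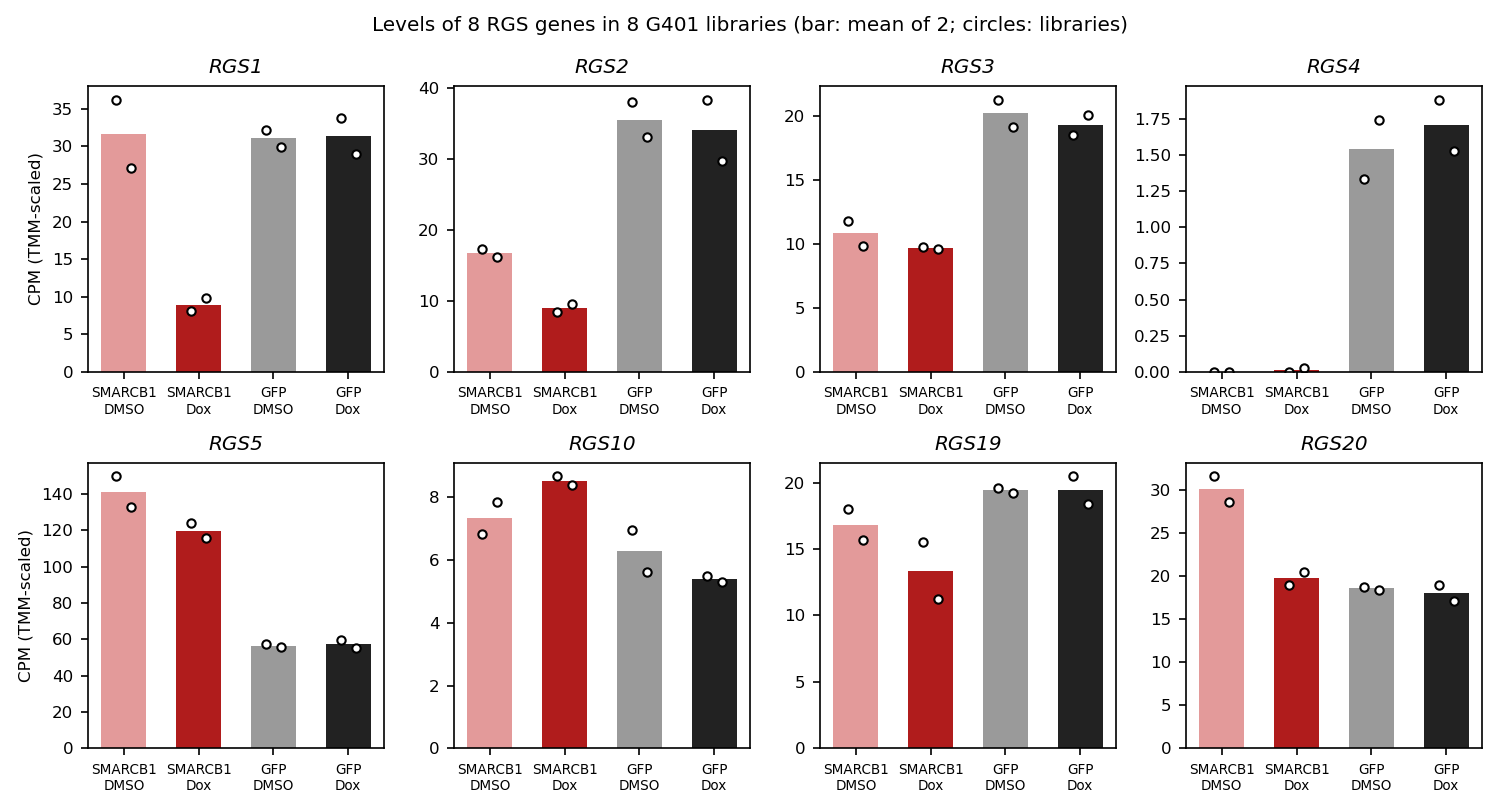
Levels of the 8 tested RGS genes in CPM on linear axes that start at 0, for the 4 groups of G401 libraries, with bars for the mean of 2 libraries and circles for each library. RGS1 is at 8.12 and 9.79 CPM in SMARCB1 Dox and at or above 27.1 CPM in the other 6 libraries, while RGS4 reads are almost confined to the GFP line, with 1 read in the SMARCB1 line.

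The other tested genes around RGS1 had smaller log2 fold changes. Within 1 Mb of the RGS1 start there were 10 protein-coding genes, of which 6 passed the expression filter. The RGS genes RGS18 and RGS21 had no read in any library, and RGS13 had at most 3. On the far side of RGS2, the log2 fold change with SMARCB1 was 0.00 (SE 0.100) for UCHL5, which encodes a deubiquitinase of the proteasome, and -0.08 (SE 0.081) for RO60, which encodes an RNA-binding autoantigen. It was -0.16 (SE 0.096) for GLRX2, a mitochondrial glutaredoxin, and -0.09 (SE 0.079) for CDC73, a subunit of the PAF1 complex. None of these 4 passed edgeR's quasi-likelihood test (adjusted p = 0.999, 0.610, 0.332 and 0.517), and the lower 95% limits of their log2 fold changes reached -0.21, -0.25, -0.35 and -0.26. UCHL5 and RO60 overlap at their ends on opposite strands, as do RO60 and GLRX2, and the strand option of the counting is not given, so reads from these overlaps could not be told apart. B3GALT2, a glycosyltransferase gene, was not tested, with 1 and 2 reads in SMARCB1 DMSO, 7 and 18 in SMARCB1 Dox, while no library of the GFP line had more than 1.

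**Figure D2:**
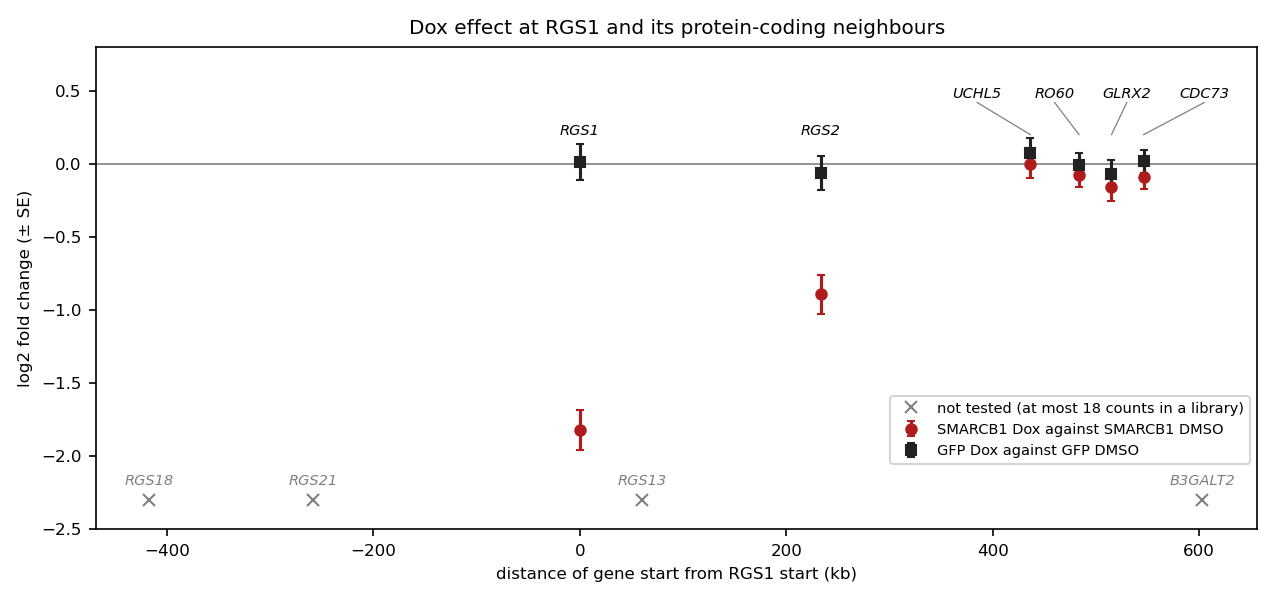
Log2 fold change of Dox against DMSO, with SE, in the SMARCB1 line (circles) and the GFP line (squares) for protein-coding genes within 1 Mb of the RGS1 start, by the distance of gene starts in kb. In the SMARCB1 line RGS1 (-1.82) and RGS2 (-0.89) lie below UCHL5, RO60, GLRX2 and CDC73, which lie between -0.16 and 0.00, and crosses mark 4 genes that were not tested.

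In the RZ subfamily, RGS20 was lower with SMARCB1, RGS19 differed less and RGS17 was barely present. RGS20, which acts on Gαz and other Gαi family members, stood at 31.7 and 28.6 CPM in SMARCB1 DMSO and at 19.0 and 20.5 CPM in SMARCB1 Dox. The GFP line gave 18.7 and 18.5 CPM with DMSO and 19.0 and 17.1 CPM with Dox, so induction of SMARCB1 left RGS20 just above or at the level of the GFP line. The log2 fold change with SMARCB1 was -0.61 (SE 0.103). RGS19, also called GAIP, had 525 and 516 reads in SMARCB1 DMSO against 552 and 392 in SMARCB1 Dox, and its log2 fold change of -0.33 (SE 0.135) rested mainly on SMARCB1 Dox replicate 2. Without that library the log2 fold change of RGS19 was -0.12, and without SMARCB1 Dox replicate 1 it was -0.58 and called by the fit. RGS17 had 1 and 0 reads in SMARCB1 DMSO against 2 and 0 in SMARCB1 Dox, then 1 and 0 with DMSO in the GFP line and none there with Dox.

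The remaining R4 genes and RGS10 varied less with SMARCB1 than RGS1 and RGS2. RGS5 had 4371 and 4380 reads in SMARCB1 DMSO and 4416 and 4043 in SMARCB1 Dox, which gave a log2 fold change of -0.24 (SE 0.083). It was -0.15 without SMARCB1 DMSO replicate 1, and -0.32 and called by the fit without SMARCB1 DMSO replicate 2. RGS3, a longer R4 protein, had 344 and 325 reads in SMARCB1 DMSO and 348 and 335 in SMARCB1 Dox, with a log2 fold change of -0.16 (SE 0.127), which was -0.027 without SMARCB1 DMSO replicate 1 and -0.29 without SMARCB1 DMSO replicate 2. RGS10, which acts on Gαi family members, was the one member with a value above 0, RGS4 aside. It had 199 and 259 reads in SMARCB1 DMSO and 309 and 293 in SMARCB1 Dox (log2 fold change 0.21, SE 0.151). The value was 0.12 without SMARCB1 DMSO replicate 1 and 0.32 without replicate 2 of that group. RGS4 had 1 read in the 4 libraries of the SMARCB1 line, in SMARCB1 Dox replicate 2, and its fitted fold change, which rests on that read, is not given. RGS16 had no read in any of the 8 libraries, which allows a level of up to 0.011 CPM over all of them, a limit that covers counting error only.

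Across the 8 tested members, the fit called RGS1, RGS2 and RGS20 lower with SMARCB1 and none higher. Over all 15931 genes tested, 14% were called with SMARCB1, 8.33% higher and 5.69% lower. Since these members were chosen with this contrast in view, nothing is read from the comparison of the shares. By adjusted p, RGS20 and then RGS2 were nearest to the threshold from the called side, at log2 fold changes of -0.61 and -0.89. RGS5 and then RGS19 were the nearest from the other side, at -0.24 and -0.33.

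Dox together with the GFP that it induces was examined in the GFP line, whose libraries had no part in the choice of RGS1. No group received Dox without induction of a transgene, so Dox alone was not tested. None of the 8 members was called by edgeR or by DESeq2, none had an unadjusted p under 0.05, and the log2 fold changes lay near 0. RGS1 changed by 0.01 (SE 0.123, 95% interval -0.24 to 0.27), RGS2 by -0.06 (SE 0.115, -0.30 to 0.18) and RGS20 by -0.05 (SE 0.106, -0.27 to 0.17), each with an edgeR adjusted p of 1. RGS10 had the lowest value, -0.22 (SE 0.157, -0.55 to 0.11). RGS4, whose reads in the GFP line were 45 and 67 with DMSO against 58 and 56 with Dox, was known least precisely (0.14, SE 0.347, -0.58 to 0.87). Of all genes tested, 0% were called by edgeR in the GFP line, 266 (1.67%) had an unadjusted p under 0.05, and DESeq2 called 0. The fit estimated the spread of a gene over all 4 groups together, so its p-values do not reflect a spread that differs between the lines. The difference between the Dox effects of the lines, SMARCB1 minus GFP, was -1.83 (SE 0.182) for RGS1, -0.83 (SE 0.174) for RGS2 and -0.56 (SE 0.148) for RGS20 on the log2 scale. The fit called these 3 lower in the difference and no member higher, where 1.64% of all genes were called lower and 3.07% higher, and nothing is read from this count either.

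**Figure D3:**
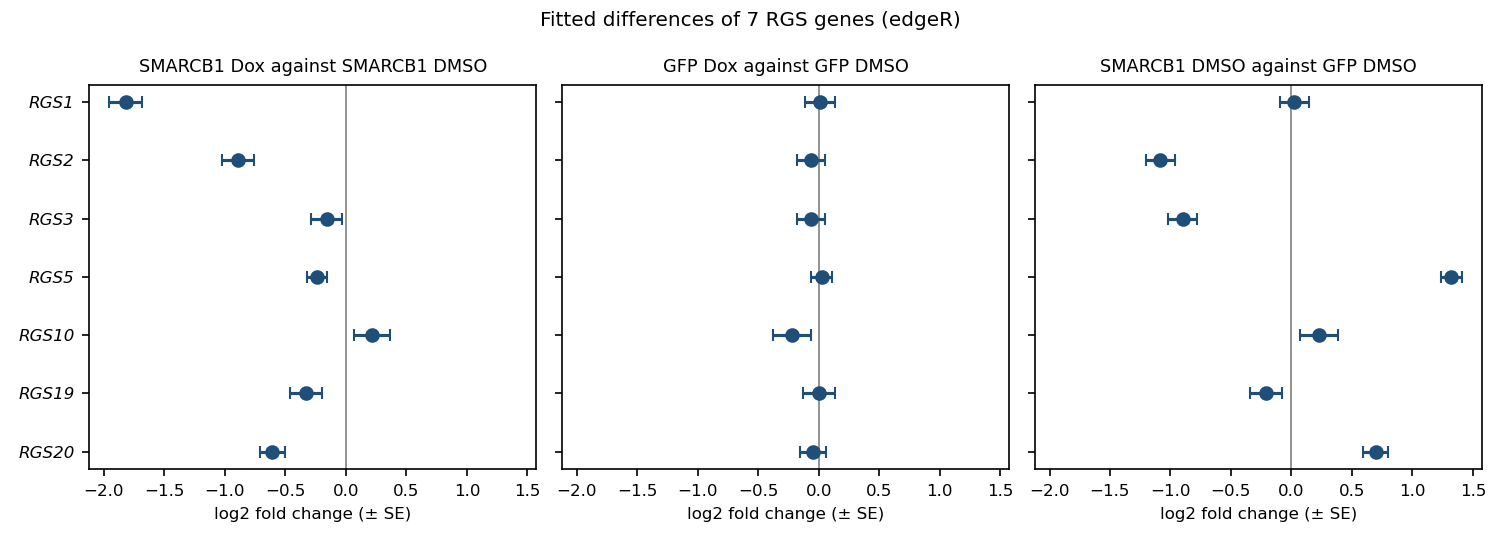
Fitted log2 fold changes with SE for 7 RGS genes in 3 comparisons, with RGS4 left out because the SMARCB1 line held 1 read of it. RGS1 lies at -1.82 for SMARCB1 induction and near 0 (0.01 and 0.03) in the other panels, whereas RGS2, RGS3, RGS5 and RGS20 lie away from 0 between the uninduced lines.

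The uninduced lines differed in several of the RGS genes, while RGS1 was not called. In SMARCB1 DMSO against GFP DMSO, edgeR called 5 of the 8 members, 2 higher and 3 lower in the SMARCB1 line, where 32% of all genes tested were called, 16.3% higher and 15.7% lower. RGS4, among the 3 lower, passed the expression filter only through the GFP line, so its call is a description. This comparison uses the same SMARCB1 DMSO libraries as that of SMARCB1 induction. RGS1 stood at 31.7 ± 6.44 CPM in the SMARCB1 line and 31.1 ± 1.63 CPM in the GFP line (SD, n = 2), a log2 difference of 0.03 (SE 0.123, 95% interval -0.23 to 0.28, edgeR adjusted p = 0.904).

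RGS4 marked the line most sharply. It had no read in SMARCB1 DMSO and 112 in GFP DMSO. With a floor of 3 counts over the group, it was at least 32.1-fold lower in the SMARCB1 line. RGS4 passed the expression filter only through its reads in the GFP line, so its difference is given as a description, without a p. RGS5, its neighbor on chromosome 1, went the other way. The genes lie 34.3 kb apart on opposite strands, RGS4 at chr1:163068775-163076802 and RGS5 at chr1:163111121-163321791 on GRCh38. RGS5 reached 150 and 133 CPM in SMARCB1 DMSO against 57.4 and 55.8 CPM in GFP DMSO, a 2.50-fold higher level (log2 difference 1.32, SE 0.085, edgeR adjusted p = 3.31e-11). RGS5 shares exon bases with a long noncoding RNA on the same strand, so part of its reads could have been left unassigned.

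RGS2 was 2.12-fold lower in SMARCB1 DMSO than in GFP DMSO (log2 difference -1.08, SE 0.12, edgeR adjusted p = 2.61e-07). RGS3 was 1.87-fold lower, at 11.8 and 9.86 CPM against 21.3 and 19.1 CPM (log2 difference -0.90, SE 0.122, edgeR adjusted p = 4.61e-06). RGS20 was 1.62-fold higher (log2 difference 0.70, SE 0.104, edgeR adjusted p = 1.58e-05). Thus the lines differed in both directions within the R4 subfamily. RGS10 (log2 difference 0.23, 95% interval -0.09 to 0.55, edgeR adjusted p = 0.287) and RGS19 (-0.21, -0.48 to 0.07, edgeR adjusted p = 0.251) did not pass the test.

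The members shared a few orders of the 4 groups. For RGS1, SMARCB1 Dox stood apart at the bottom and the other 3 groups overlapped. For RGS2, RGS3 and RGS19 both GFP groups overlapped at the top, followed by SMARCB1 DMSO and SMARCB1 Dox as separate levels, although the closest libraries of these 2 groups were 9.86 and 9.78 CPM for RGS3 and 15.7 and 15.5 CPM for RGS19. For RGS5 and RGS20 the order was SMARCB1 DMSO, SMARCB1 Dox and then the GFP groups, which overlapped, but for RGS20 the lowest SMARCB1 Dox library (18.99 CPM) and the highest GFP library (18.97 CPM) were nearly equal. For RGS10, SMARCB1 Dox was highest at 8.53 ± 0.211 CPM and GFP Dox lowest at 5.39 ± 0.133 CPM (SD, n = 2), with both DMSO groups overlapping in between. Without a test, these orders describe 2 libraries per group.

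Levels of different members were compared per kb of exon. The order depended on the line. RGS5 led in the SMARCB1 line, at 21.3 CPM per kb with DMSO and 18.1 with Dox, whereas RGS2 led in the GFP line, at 17.0 CPM per kb with DMSO and 16.3 with Dox. In the GFP line RGS5 stood at 8.54 and 8.69 CPM per kb, below RGS19 at 9.58 and 9.59. Averaged over the 4 groups, RGS3 was at 1.14 CPM per kb on a long exon union of 13152 bases, which holds all its annotated isoforms, and RGS4 at 0.172 CPM per kb. In SMARCB1 DMSO, RGS1 stood at 7.77 CPM per kb, close to RGS2 at 8.02, RGS19 at 8.30 and RGS20 at 9.41. In SMARCB1 Dox it stood at 2.20 CPM per kb, below RGS2 at 4.31, RGS20 at 6.17, RGS19 at 6.59 and RGS10 at 6.70, and above RGS3 at 0.736.

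The other 11 RGS genes of the family list were mostly silent, with 3 tested, RGS9, RGS12 and RGS14. RGS9, known from photoreceptors and striatal neurons, had 276 and 260 reads in SMARCB1 DMSO and 400 and 527 in SMARCB1 Dox, and rose with SMARCB1 (log2 fold change 0.60, SE 0.158, edgeR adjusted p = 0.0127). This call was lost without SMARCB1 DMSO replicate 2 (0.47, edgeR adjusted p = 0.106) or SMARCB1 Dox replicate 2 (0.37, edgeR adjusted p = 0.190), and the difference from the Dox effect in the GFP line did not pass (0.40, SE 0.221, edgeR adjusted p = 0.405). RGS14, which also binds Gαi through a GoLoco motif, was lower in SMARCB1 DMSO than in GFP DMSO (-0.68, SE 0.176, edgeR adjusted p = 0.00469). That call was lost without SMARCB1 DMSO replicate 2 (-0.49, edgeR adjusted p = 0.0774) or GFP DMSO replicate 2 (-0.58, edgeR adjusted p = 0.0625). RGS12 was called in neither comparison, at -0.04 (SE 0.153) with SMARCB1 and -0.07 (SE 0.151) between the lines.

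Among 9461 protein-coding genes that averaged 5 CPM or more, the profile over the 8 libraries closest to that of RGS1 was shown by GCNT4, TBK1, ADAMTS3, CLCC1 and ORC2. Likeness was measured as Pearson's r of log2 CPM, which was between 0.988 and 0.990 for these 5. The libraries form 4 groups of 2, share depth and treatment within a group, and RGS1 separates 1 group from the other 3. Therefore r mainly sorts genes by how alike the 3 groups without induction of SMARCB1 are, and is given without a p. GCNT4, a glycosyltransferase of O-glycan branching, stood at 610 ± 54.7 CPM in SMARCB1 DMSO and 284 ± 3.20 CPM in SMARCB1 Dox (SD, n = 2). Its log2 fold change was -1.11 (SE 0.090), that of ADAMTS3, a procollagen protease, -0.78 (SE 0.083), and that of CLCC1, a chloride channel of the endoplasmic reticulum, -0.69 (SE 0.090). The kinase gene TBK1 (-0.43, SE 0.087) and the replication origin gene ORC2 (-0.41, SE 0.083) had smaller log2 fold changes. All 5 were thus picked for a pattern in which RGS1 itself had the larger fold change. Among the members, r with RGS1 was 0.844 for RGS2, 0.786 for RGS19, 0.659 for RGS3, 0.534 for RGS4, 0.218 for RGS20, -0.435 for RGS5 and -0.730 for RGS10. Their ranks among the 9461 genes were 515 for RGS2, 833 for RGS19, 1578 for RGS3, 3895 for RGS20, 6612 for RGS5 and 8363 for RGS10. RGS4, with 1 read in the SMARCB1 line, averaged under 5 CPM and was not ranked.

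The rest of the G protein pathway was read from lists of 94 genes by role, of which 57 were tested. With SMARCB1, 18 of these were called, 15 higher and 3 lower, or 31.6% of those tested against 14% of all genes, of which 8.33% were called higher and 5.69% lower. These shares over all genes stand beside each of the counts by role that follow. The median log2 fold change of the 57 was 0.07, against -0.0038 for all genes. In the GFP line edgeR called 0 of the 57, of which 2 had an unadjusted p under 0.05, and DESeq2 called 0. In the difference of the Dox effects edgeR called 6, or 10.5%, against 4.71% of all genes. The lists were chosen with earlier results of these data known, so nothing is read from the comparison of these shares and medians.

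All receptor genes called lower with SMARCB1 encode protease-activated receptors, which are cleaved by thrombin or related proteases, while both called higher encode adenosine receptors. Of 10 tested receptor genes, 3 fell and 2 rose. The 3 that fell, F2RL2, F2R and F2RL1, lie near each other within chr5:76615482-76835315. Whether they changed separately was not tested. F2RL1 (PAR2) went from 295 and 236 CPM to 164 and 180 CPM, a log2 fold change of -0.63 (SE 0.094, edgeR adjusted p = 7.63e-05). F2RL2 (PAR3) changed by -0.62 (SE 0.088, edgeR adjusted p = 4.51e-05) and F2R (PAR1) by -0.44 (SE 0.094, edgeR adjusted p = 0.00284). The call of F2R was lost without SMARCB1 DMSO replicate 1 (-0.27, edgeR adjusted p = 0.0711). ADORA1, a Gi-coupled adenosine receptor, rose by 0.80 (SE 0.196, edgeR adjusted p = 0.00758), which was lost without SMARCB1 DMSO replicate 1 (0.56, edgeR adjusted p = 0.115) or SMARCB1 Dox replicate 1 (0.63, edgeR adjusted p = 0.111). ADORA2B, a Gs-coupled adenosine receptor, was the other receptor gene called higher. In SMARCB1 Dox, ADORA1 averaged 7.19 CPM, against 8.23 in GFP DMSO and 9.34 in GFP Dox. ADORA2B averaged 12.8 CPM in SMARCB1 Dox, against 8.63 in SMARCB1 DMSO, 4.59 in GFP DMSO and 5.43 in GFP Dox. In the difference of the Dox effects, ADORA1, ADORA2B and F2R did not pass (edgeR adjusted p = 0.242, 0.553 and 0.116).

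Among Gα genes, 4 of 10 tested rose with SMARCB1 and none fell. GNAI1, which encodes an inhibitory Gα that RGS proteins act on, went from 7.96 and 8.13 CPM to 13.3 and 14.6 CPM, a log2 fold change of 0.79 (SE 0.125, edgeR adjusted p = 0.000133). In the GFP line GNAI1 stood at 14.3 and 15.8 CPM with DMSO and at 15.6 and 14.8 CPM with Dox. GNAI2, GNAZ and GNA12 were the others. For these, every SMARCB1 DMSO library, like every SMARCB1 Dox library, lay above every GFP library. In the difference of the Dox effects, GNAI2, GNAZ and GNA12 did not pass (edgeR adjusted p = 0.0831, 0.0988 and 0.0606). Of 14 tested Gβ and Gγ genes, which form the partner of Gα, edgeR and DESeq2 called 0, and 1 had an unadjusted p under 0.05. Of 7 effector genes the adenylyl cyclase genes ADCY6, ADCY7 and ADCY9 rose, ADCY7 from 24 and 15 reads to 112 and 85 (log2 fold change 2.14, SE 0.360, edgeR adjusted p = 0.000275).

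Of the 7 genes for receptor kinases and arrestins, which switch receptors off, 3 rose and none fell by edgeR, whereas DESeq2 called 1. ARRB1 (β-arrestin 1) went from 28.9 and 28.1 CPM to 56.5 and 53.2 CPM, a log2 fold change of 0.94 (SE 0.090, edgeR adjusted p = 3.04e-07). GRK2 and GRK4 were the others, GRK4 close to the threshold (0.63, SE 0.208, edgeR adjusted p = 0.0451), and its call was lost without either of SMARCB1 DMSO replicate 2 (0.39, edgeR adjusted p = 0.325) and SMARCB1 Dox replicate 1 (0.46, edgeR adjusted p = 0.312). It was also lost without GFP Dox replicate 1 or 2, although the log2 fold change was then 0.63 in both cases. GRK4 averaged 4.64 CPM in SMARCB1 Dox, against 4.41 in GFP DMSO and 4.62 in GFP Dox. For ARRB1 and GRK2, every SMARCB1 Dox library lay above every GFP library. Of 6 tested genes for Gα chaperones and GoLoco proteins, which bind Gα outside the receptor cycle, GPSM1 (0.82, SE 0.107, edgeR adjusted p = 1.58e-05) and RIC8A rose.

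The 6 pathway genes whose Dox effect differed between the lines were ARRB1, GPSM1, GNAI1 and RIC8A, higher, and F2RL1 and F2RL2, lower. Among the pathway genes named here, ADCY6, ADCY7, ADORA1, ARRB1, F2R, F2RL1, F2RL2, GNAL, GNAZ, GNG13, GPSM1, PLCB2 and RIC8A share exon bases with genes on the opposite strand. The strand option of the counting is not given.

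**Figure D4:**
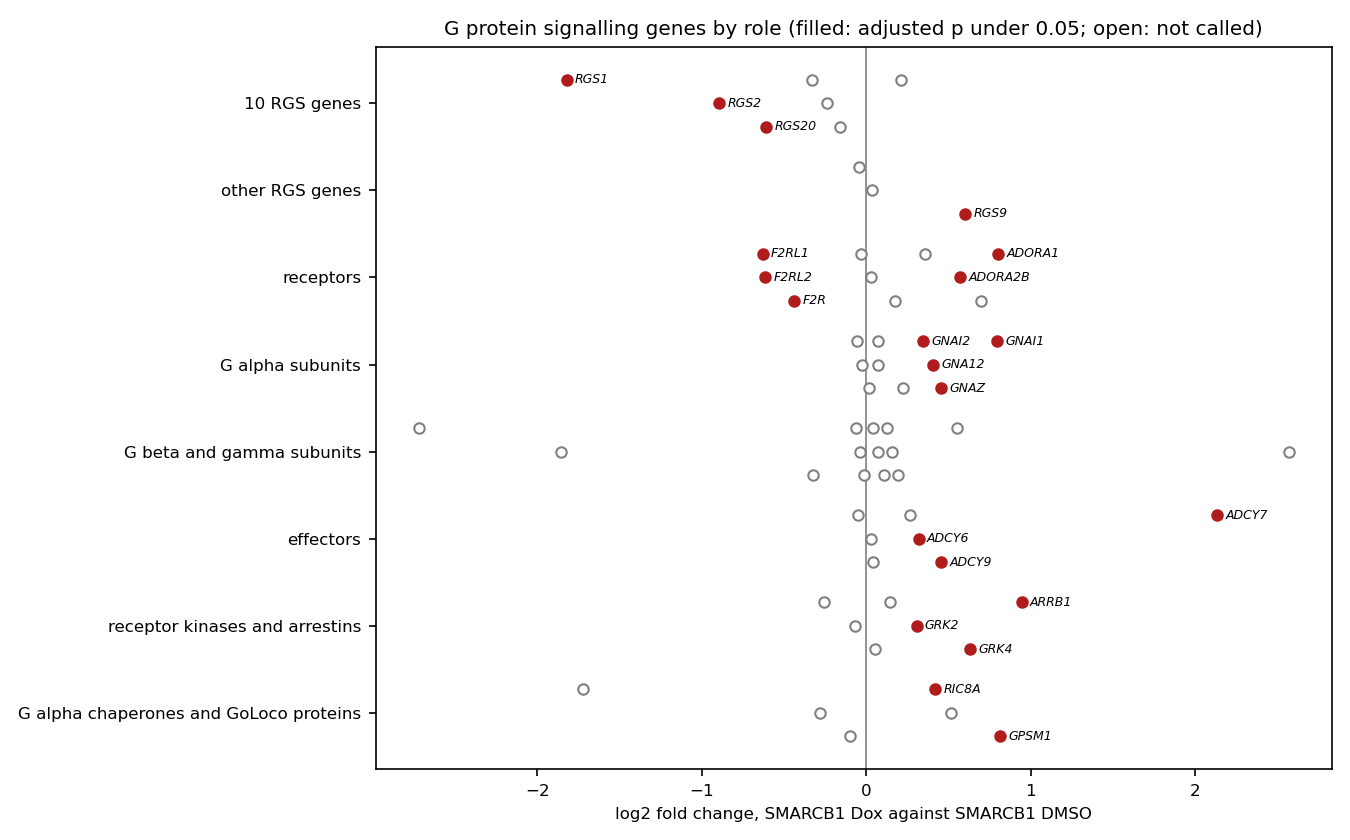
Log2 fold change of SMARCB1 Dox against SMARCB1 DMSO for tested G protein signaling genes, by role, with filled circles for edgeR adjusted p under 0.05 and 7 of the 10 RGS genes in the top row (RGS4, with 1 read, is not drawn), where the calls are a description. RGS1, RGS2, RGS20 and the protease-activated receptor genes lie on the lower side, and the called Gα, effector, arrestin and kinase genes on the higher side.

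Between the uninduced lines, 30 of the 57 pathway genes were called, 17 higher and 13 lower in the SMARCB1 line, or 52.6% against 32% of all genes. Among them, EDNRA, GNG11, GNG8, GNG13, ADCY1 and ADCY7 had at most 7 reads in each library of the line where they were lower. These genes passed the expression filter only through the other line. The share over all genes was not freed of such genes, and nothing is read from the comparison of the shares. GNAL, the olfactory type of stimulatory Gα, was higher at 18.6 and 14.1 CPM against 4.32 and 3.80 CPM (log2 difference 2.01, SE 0.167, edgeR adjusted p = 2.49e-09). The Gγ genes GNG12 (1.37, SE 0.079) and GNG10 (0.91, SE 0.182) were higher and GNG4 (-1.04, SE 0.137) was lower, with edgeR adjusted p of 5.07e-12, 0.000447 and 2.90e-06. Reads of GNG10 may be shared with a readthrough gene on the same strand. PLCB2, a phospholipase C driven by G proteins, was lower (-1.05, SE 0.136, edgeR adjusted p = 2.30e-06), as were ADORA1 (1.99-fold), GNAI1 (-0.90, SE 0.124) and F2RL1 (-0.56, SE 0.093). ADORA2B (0.91, SE 0.173), GNAI2 (0.51, SE 0.079) and S1PR5, a sphingosine 1-phosphate receptor gene (0.55, SE 0.156, edgeR adjusted p = 0.00898), were higher. The call of S1PR5 was lost without SMARCB1 DMSO replicate 1 (0.41, edgeR adjusted p = 0.111) or GFP DMSO replicate 2 (0.43, edgeR adjusted p = 0.130).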

How the data were processed

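RNA-seq libraries of 8 G401 samples were analysed from the deposited raw read counts per gene. The authors made these counts with STAR and HTSeq on hg38, per the submitters' processing notes, over exons of GENCODE v42. Tool versions and the strand option are not given in the sources used here. The labels name a ribosome profiling kit and the methods a directional RNA kit, so the library chemistry is uncertain. Entries that name no gene held 27% to 29.3% of reads and were left out. Symbols and positions came from GENCODE v44, which matched 62625 of 69215 genes, and promoter windows from RefSeq.

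Counts were fitted with edgeR 4.0.16 (R 4.3.3), using its default expression filter (15931 genes), TMM scaling, 1 mean per group over all 8 libraries and quasi-likelihood tests, with calls at a Benjamini-Hochberg adjusted p under 0.05 over all genes tested. The study's methods name DESeq2, used here as an alternative (1.42.0). Log2 CPM for likeness used a prior count of 2. Each SE was the log2 fold change over the root of its F statistic. Steps were tested on simulated data. Floors of 3 counts cover counting error only.

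The members, gene lists and tests were chosen with earlier results of these data known. Genes named were the 10 RGS genes, SMARCB1, the 5 genes most like RGS1, protein-coding genes within 1 Mb of RGS1, and, from the pathway lists, up to 6 called genes per direction with the largest log2 fold change, a mean of at least 1 CPM and groups that did not overlap. The 3 tested RGS genes outside the set were named after their values were seen, as were pathway genes given without a log2 fold change.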

Additional observations from a re-analysis of the deposited data

Results flagged for a closer look

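The effect of Dox differed between the SMARCB1 line and the GFP line, by edgeR's quasi-likelihood test of the difference, for 6 of the pathway genes. For 3 RGS genes, the log2 difference (SMARCB1 line minus GFP line) is a description, since RGS1 was chosen for its fall with SMARCB1. It was -1.83 for RGS1, -0.83 for RGS2 and -0.56 for RGS20. It was -0.61 for F2RL1 and -0.58 for F2RL2, and 0.92 for ARRB1, 0.91 for GPSM1, 0.78 for GNAI1 and 0.44 for RIC8A (edgeR adjusted p = 0.00766, 0.00755, 0.000121, 0.00086, 0.00898 and 0.0258, in this order). Among all genes tested, 4.71% were called in this comparison. Groups of 2 libraries were too small for a check of single outlying libraries.

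The call of RIC8A was lost when any of 6 libraries was left out (log2 difference 0.36 to 0.46, edgeR adjusted p up to 0.132) or the GC trend was removed (0.35, edgeR adjusted p = 0.0627), and stayed without SMARCB1 DMSO replicate 2 and SMARCB1 Dox replicate 2. The call of GNAI1 was lost without GFP DMSO replicate 2 (0.71, edgeR adjusted p = 0.0609) or GFP Dox replicate 2 (0.74, edgeR adjusted p = 0.0510), and that of F2RL1 without GFP Dox replicate 1 (-0.57, edgeR adjusted p = 0.0564).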

How the results depend on the processing

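Alternatives were other scalings (RLE, library totals), no expression filter, DESeq2, a replicate block, a fit of the 2 groups compared, leaving out each library and, added after seeing the data, removal of a GC trend. Of the recomputed counts of calls, 115 stayed within 1.5 times the reported count and 3 did not. Same-numbered libraries share only a number, and their deviations from the group means correlated by 0.0309 to 0.148. With the replicate block, 5 in place of 3 RGS genes were called with SMARCB1, with RGS5 and RGS19 added. RGS19 was also called with the GC trend removed, at -0.49. In the difference of the Dox effects, the block gave 11 in place of 6 pathway genes. Over all genes it gave 3149 in place of 2234 calls with SMARCB1, and 1282 in place of 750 in the difference. Nothing is read from the added calls. Leaving out 1 library gave 1 to 3 RGS genes called in that difference, the 1 (RGS1) without GFP Dox replicate 1, where RGS2 was at -0.63. The call of RGS20 in that difference was lost without any of 6 libraries and under library totals (-0.48) and the GC trend (-0.50).

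Values that changed sign were not called and lay near 0. Leaving out 1 library in the GFP line gave -0.11 to 0.12 for RGS1, -0.26 to 0.11 for RGS2, -0.15 to 0.012 for RGS3, -0.037 to 0.35 for RGS4, -0.037 to 0.081 for RGS5, -0.081 to 0.075 for RGS19 and -0.12 to 0.026 for RGS20. RGS19 there was -0.0011 with RLE, -0.00054 with DESeq2, -0.0022 with the replicate block and -0.0039 with 2 groups. With SMARCB1, leaving out 1 library gave -0.10 to 0.11 for UCHL5 and -0.17 to 0.012 for RO60, which was 0.016 under library totals and 0.028 without the GC trend, where CDC73 was 0.00069. Between the lines RGS1 ran from -0.20 to 0.22 without 1 library and was -0.10 under library totals, which moved the median of all genes from 0.01 to -0.10. RGS19 was called there only under library totals (-0.33, adjusted p = 0.0491 by edgeR). The cause of these changes was not tested. Depth limits RGS4, RGS16 and RGS17 most, and 2 libraries per group limit every estimate of spread.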
